A study of Mus musculus with 180 samples.

Results

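The genes described here are *Il12a*, *Il12b*, *Il23a*, *Il27*, *Ebi3* and *Il10*, which encode the subunits of the IL-12 family of cytokines and IL-10. They were taken by gene symbol, and all 6 were found among the 45070 genes of the deposited expression table. The cells were bone marrow-derived macrophages, grown in culture from the marrow of wild-type male C57/BL6 mice. They were given 1 of 58 clinical kinase inhibitors (CKIs) or the vehicle DMSO for 1 h, and then LPS at 10 ng/mL for 2 h. Each CKI had 3 samples and DMSO had 6, in 2 sets of 3, and every group received LPS, so that induction by LPS itself was not measured here. The concentration differed between CKIs, having been set for each compound from binding to its intended kinase, and some CKIs were applied against a kinase other than the one they are best known for, such as Apitolisib against JAK1. Differences between CKIs are therefore differences at unmatched concentrations. The PI3K/mTOR class below holds the CKIs whose listed targets, designated or other, include both a PI3K and mTOR. AZD-2014 belongs to it by this rule, although it is labelled as an mTOR inhibitor. The MEK class holds the CKIs designated against MEK.

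IL-12 family cytokines are heterodimers that share their chains. The p40 chain, encoded by *Il12b*, pairs with p35 (*Il12a*) to form IL-12, which drives T cells towards interferon-gamma production, and with p19 (*Il23a*) to form IL-23, which sustains IL-17-producing T cells. The EBI3 chain pairs with p28 (*Il27*) to form IL-27, and with p35 to form IL-35. IL-10 is a homodimer that restrains macrophage activation, including the transcription of *Il12b*. In macrophages and dendritic cells PI3K, mTOR and the MEK-ERK and p38 cascades are known as regulators of the balance between IL-12 and IL-10 after TLR4 stimulation.

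In the mm10 coordinates of the table *Il12b* lies at chr11:44400063-44414677 and *Il12a* at chr3:68690644-68698550, both on the plus strand. *Il23a* lies at chr10:128296140-128298084 and *Il27* at chr7:126589009-126595022, both on the minus strand. *Ebi3* lies at chr17:55952623-55957022 and *Il10* at chr1:131019845-131024970, both on the plus strand. The values count reads on all annotated exons of a gene together. The exons of *Il27* overlap those of *Apobr* and the exons of *Ebi3* overlap those of *Gm16712*, in each case on the opposite strand, and the counting was not stated to use the strand.

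The promoter windows of *Il12b* and *Ebi3* are shown because these genes were called higher than DMSO in the largest number of CKIs among the 6 genes. They run from 250 bases before to 50 bases after the annotated start, on the strand of the gene, and come from RefSeq on GRCm38.p6. The capitals mark the single match among the motifs searched, an NF-kB-type element read on the opposite strand.
Il12b, chr11:44399813-44400112: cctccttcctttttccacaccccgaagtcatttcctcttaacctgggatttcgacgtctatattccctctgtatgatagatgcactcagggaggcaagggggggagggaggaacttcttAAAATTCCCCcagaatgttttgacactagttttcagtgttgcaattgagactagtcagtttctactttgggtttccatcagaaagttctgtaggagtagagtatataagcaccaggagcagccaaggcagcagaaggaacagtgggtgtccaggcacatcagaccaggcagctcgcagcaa
Ebi3, chr17:55952373-55952672: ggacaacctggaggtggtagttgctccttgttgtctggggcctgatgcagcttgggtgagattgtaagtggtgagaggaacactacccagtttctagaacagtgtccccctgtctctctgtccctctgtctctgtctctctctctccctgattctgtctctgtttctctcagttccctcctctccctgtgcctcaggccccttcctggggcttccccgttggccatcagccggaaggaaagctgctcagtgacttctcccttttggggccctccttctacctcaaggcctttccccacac
The match in the *Il12b* window lies from 131 to 122 bases before the start. Of 32851 promoter windows, 0.07% hold these letters on either strand. The pattern searched was a single spelling with no variable position, so that a low share follows from its fixed letters. Its letters were not shown to be chosen independently of the *Il12b* promoter. The match is therefore given as a position only, and its role was not tested. The other motifs searched on both strands were the NF-kB consensus, TGANTCA for AP-1, TGACG for the core of the cyclic AMP response element, TTNNGNAA for C/EBP, the interferon response element and GGGCGG for Sp1. Exact matches to these patterns are present in 0.411%, 7.81%, 20.8%, 40.7%, 3.44% and 35.7% of the windows, and in neither window shown. Other spellings of the motifs were not searched, so that an element written with other letters would be missed.

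The 180 samples had totals between 9477340 and 12273349 normalized values, that is read counts on exons after scaling by the authors. All 7 macrophage markers were detected, while the T cell, B cell and NK cell markers summed to at most 22 in any DMSO sample. Neutrophil markers summed to between 166 and 517 and fibroblast markers to between 19 and 141 in DMSO, against 82123 to 185730 for the macrophage markers. Over the CKI samples neutrophil markers summed to between 120 and 1403, fibroblast markers to between 4 and 221 and dendritic cell markers to between 50 and 297, the last against 87 to 153 in DMSO. The share of mitochondrially encoded transcripts ranged from 0.525% to 4.47% and is given below where it moved with a result. In a bulk sample, fewer cells expressing a gene and less of its RNA per cell cannot be told apart.

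The 6 genes were expressed at very different levels. Per kilobase of exon, the mean normalized value in DMSO was 3452 ± 1197 for *Il27*, 855 ± 438 for *Il10*, 649 ± 111 for *Il12b* and 635 ± 119 for *Ebi3* (SD, n = 6). It was 1.09 ± 0.609 for *Il12a* and 0.613 ± 0.554 for *Il23a*, so that the transcripts of p35 and p19 were hardly detected beside that of p40. *Il12b*, *Ebi3*, *Il27* and *Il10* passed the filter for testing, which asked for a mean of 10 or more across the series, as did 12714 genes in all. *Il12a*, with a mean of 2.35, and *Il23a*, with a mean of 1.82, did not.

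*Il12b* was called higher than DMSO in 5 of the 58 CKIs and lower in 0, by limma with a Benjamini-Hochberg adjusted p under 0.05. Over all genes and CKIs, 2.52% of tests were called higher and 1.65% lower. At an unadjusted p under 0.05, *Il12b* differed in 10 CKIs. The 5 CKIs were the p38 inhibitor PH-797804, the PI3K/mTOR inhibitor Omipalisib, the MEK inhibitor Pimasertib, the JAK inhibitor Tofacitinib and the ERBB inhibitor Lapatinib. In these 5, and in the p38 inhibitor Losmapimod, the PI3K/mTOR inhibitors PF-04691502 and Apitolisib and the MEK inhibitor Refametinib, all 3 samples lay above all 6 DMSO samples, a pattern found in 4.52% of all tests.

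The normalized values of *Il12b* in DMSO were 1704, 1892 and 1323 in the first set and 1936, 1282 and 1611 in the second. With PH-797804 they were 4655, 3814 and 3463, a log2 fold change of 1.30 ± 0.29 (SE) with an adjusted p of 0.0022 by limma. With Losmapimod, which is also directed against p38, they were 3207, 3304 and 2730. The log2 fold change for Losmapimod was 0.94 ± 0.29, with an unadjusted p of 0.0014 and an adjusted p of 0.275, in a comparison in which 0.0865% of all genes were called. Without replicate 2 the adjusted p for PH-797804 was 0.0876, at a log2 fold change of 1.30. The other p38 inhibitors overlapped with DMSO: *Il12b* was 1761, 1449 and 2244 with Talmapimod and 1033, 2907 and 1213 with VX-702.

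Among the PI3K/mTOR inhibitors, Omipalisib gave *Il12b* values of 3855, 3534 and 3620, a log2 fold change of 1.19 ± 0.29 with an adjusted p of 0.0007 by limma. In the comparison of Omipalisib with DMSO, 17.5% of all genes were called higher. The values were 3347, 2097 and 2492 with PF-04691502, 2620, 2227 and 2818 with Apitolisib, 2876, 1661 and 2306 with AZD-2014, and 2448, 1487 and 1817 with BGT-226. None of these 4 CKIs passed the threshold alone in the fit without the replicate number, and AZD-2014 and BGT-226 overlapped with DMSO. The mean level thus ranged from 1917 with BGT-226 to 3670 with Omipalisib inside this class.

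The PI3K isoform and AKT inhibitors left *Il12b* within or across the DMSO range. The PI3K isoform inhibitors TG-100115 and AZD-8186 gave means of 2032 ± 471 and 1542 ± 773 (SD, n = 3). The AKT inhibitors MK-2206 and GSK-2110183 gave 1586 ± 229 and 1571 ± 411, against 1625 ± 277 in DMSO (n = 6).

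Of the MEK inhibitors, Pimasertib gave *Il12b* values of 3667, 2654 and 3016, a log2 fold change of 0.94 ± 0.29 with an adjusted p of 0.0146 by limma. The values were 2158, 2302 and 2456 with Refametinib, all above DMSO, with a log2 fold change of 0.52 ± 0.29 and an adjusted p of 0.233. They were 2174, 1713 and 1767 with Selumetinib, which overlapped with DMSO. Downstream of MEK, the ERK inhibitors GDC-0994 and Ulixertinib gave means of 1671 and 1555. Tofacitinib gave values of 2729, 3693 and 2748 with an adjusted p of 0.0338, and Lapatinib gave 2317, 3127 and 2758 with an adjusted p of 0.0432. Of all genes, 16% were called higher with Pimasertib, 9.02% with Tofacitinib and 18.1% with Lapatinib. At the other end of the order, the PLK1 inhibitor NMS-1286937 gave 1087, 801 and 1053, all below DMSO, a pattern found in 2.02% of tests, and did not pass the threshold.

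**Figure D1:**
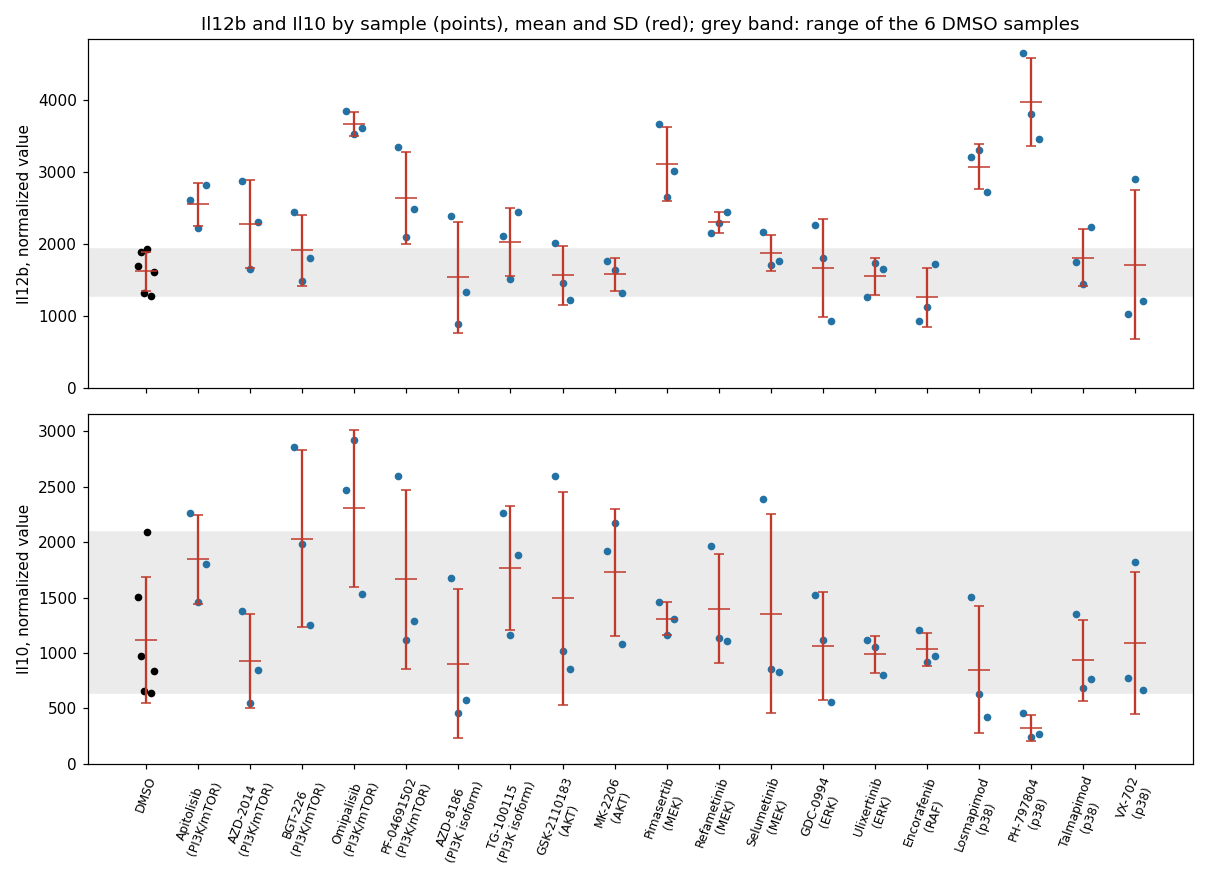
Normalized values of *Il12b* (top) and *Il10* (bottom) in every sample of DMSO and of the PI3K, AKT, MEK, ERK, RAF and p38 inhibitors, on linear axes from 0. Points are samples, red marks are means with SD, and the grey band is the range of the 6 DMSO samples. *Il12b* lies above the band in all samples of Omipalisib, PF-04691502, Apitolisib, Pimasertib, Refametinib, Losmapimod and PH-797804. *Il10* lies below the band in all 3 samples only with PH-797804.

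*Il23a*, the partner of p40 in IL-23, was close to 0 in most samples, being 0 in 65 of the 180. Its normalized values in DMSO were 2, 1 and 1 in the first set and 1, 0 and 0 in the second. With Omipalisib they were 26, 19 and 11, and these are the only 3 samples in the series at 10 or more. They were 8, 7 and 4 with BGT-226 and 5, 3 and 5 with PF-04691502. In these 3 CKIs, all of the PI3K/mTOR class, every sample was above every DMSO sample, and in no other CKI was this so. Among the genes that passed the filter for testing, which *Il23a* did not, this pattern was found in 4.52% of all tests.

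With the other PI3K/mTOR inhibitors *Il23a* was 1, 6 and 2 with Apitolisib and 0, 2 and 0 with AZD-2014, both overlapping with DMSO. With the MEK inhibitors the highest sample was 4. The exact two-sided permutation test over the 84 splits of 3 and 6 samples gave p = 0.0119 for Omipalisib, BGT-226 and PF-04691502, the smallest p that these samples allow, and 0.230 after adjustment over the 58 CKIs. From this smallest p a few CKIs cannot pass the adjustment whatever their values, so that the adjusted p decides nothing. In a limma fit without a filter on low values, over 30850 genes, *Il23a* rose with Omipalisib by 3.46 ± 0.58 in log2(value + 1), with an adjusted p of 1.7e-06. It rose with BGT-226 by 2.07 ± 0.58 with an adjusted p of 0.0059, which became 0.105 against the first DMSO set alone and was also over the threshold without replicate 1 or 2. These 2 of 58 CKIs stand beside 1.26% of all tests called higher in that fit.

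As a class, the PI3K/mTOR inhibitors gave a higher *Il23a*, by 1.59 ± 0.40 with an adjusted p of 0.0020 by limma without a filter, a comparison in which 9.12% of genes were called higher. The class difference lost its call without Omipalisib, at 1.12 with an adjusted p of 0.0553, against the first DMSO set alone, at 1.16 with an adjusted p of 0.199, and without replicate 2, at 1.26 with an adjusted p of 0.0884. It exceeded the mean of the MEK inhibitors by 1.28 ± 0.35 with an adjusted p of 0.0072, beside 4.13% of genes called higher, and by 0.82 with an adjusted p of 0.189 without Omipalisib. This excess was also not called without replicate 1 or replicate 2, with adjusted p-values of 0.0833 and 0.258. The values are so low that the fold depends on the pseudocount.

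*Il12a*, the p35 chain of IL-12, stayed at or near the floor. The values in DMSO were 1, 3, 1, 1, 2 and 1, and 19 of the 180 samples were at 0. The highest group means were 6.0, with AZD-2014 (10, 4 and 4) and with the ALK inhibitor X-396 (13, 3 and 2). AZD-2014 was the only CKI with all samples above DMSO, a pattern found in 4.52% of tests of the genes that passed the filter. *Il12a* was called in 0 CKIs by limma without a filter, with an unadjusted p under 0.05 in 4, and the lowest adjusted p of the exact permutation tests was 0.460. The smallest p that those permutation tests allow is 0.0119, from which a few CKIs cannot pass the adjustment, so that the 0.460 decides nothing. With Omipalisib, where *Il12b* and *Il23a* were higher, *Il12a* was 1, 1 and 1. A difference in *Il12a* of a few counts was not detectable at this depth.

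**Figure D2:**
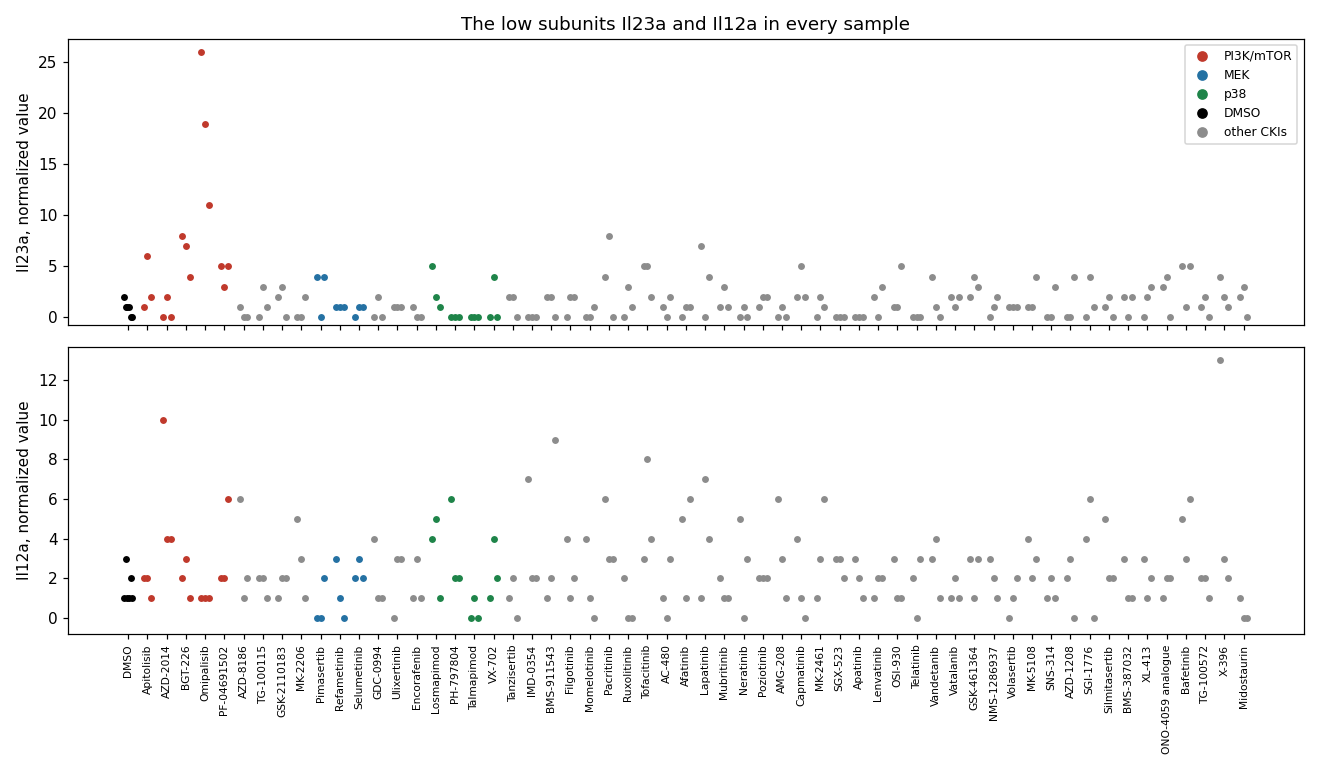
Normalized values of *Il23a* (top) and *Il12a* (bottom) in every sample of DMSO and the 58 CKIs, on linear axes. The 3 Omipalisib samples of *Il23a*, at 26, 19 and 11, stand above all other samples of the series, while no class separates for *Il12a*.

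*Ebi3* was called higher in 5 CKIs and lower in 0, with an unadjusted p under 0.05 in 11. Of all tests, 2.52% were called higher and 1.65% lower. The share of all genes called higher was 16% with Pimasertib, 18.1% with Lapatinib, 9.02% with Tofacitinib, 12.7% with Apitolisib and 6.06% with AZD-2014, the 5 CKIs. The normalized values of *Ebi3* in DMSO were 638, 800 and 621 in the first set and 996, 729 and 676 in the second. With Pimasertib they were 1187, 1948 and 1339, a log2 fold change of 0.99 ± 0.30 with an adjusted p of 0.0135 by limma. Every Pimasertib sample was above every DMSO sample, a pattern found in 4.52% of all tests and, for *Ebi3*, in 7 of the 58 CKIs, Vatalanib among them.

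With Lapatinib *Ebi3* was 1381, 1689 and 1279, and with Tofacitinib 1440, 1505 and 1309, log2 fold changes of 0.97 and 0.95. The same 3 CKIs had a higher *Il12b*. Refametinib, at 1457, 1148 and 1501, was above DMSO in every sample, with a log2 fold change of 0.89 ± 0.30 and an adjusted p of 0.114. Selumetinib, at 1607, 730 and 1073, overlapped with DMSO.

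In the PI3K/mTOR class *Ebi3* was called with Apitolisib, at 1215, 1374 and 1419 (log2 fold change 0.86, adjusted p 0.0365 by limma), and with AZD-2014, at 1705, 901 and 1298 (0.78, adjusted p 0.0494). AZD-2014 had 1 sample inside the DMSO range. Omipalisib, at 1011, 1362 and 1060, was above DMSO in every sample but did not pass, with an adjusted p of 0.105. *Ebi3* was lowest with the SRC inhibitor TG-100572, at 454, 711 and 450.

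*Il27*, whose p28 chain completes IL-27 with EBI3, was called lower in 2 CKIs and higher in 0, with an unadjusted p under 0.05 in 14. Of all tests, 1.65% were called lower and 2.52% higher. The values in DMSO, 3739, 5053 and 2497 in the first set and 3881, 5488 and 2190 in the second, spread widely. With the JAK inhibitor Filgotinib they were 1041, 708 and 860, a log2 fold change of -2.07 ± 0.37 with an adjusted p of 6.0e-06 by limma. All 3 samples were below all DMSO samples, a pattern found in 2.02% of all tests. For *Il27* it was found in 3 of the 58 CKIs, Filgotinib, GSK-2110183 and the Aurora inhibitor SNS-314. The means of Filgotinib and DMSO were 870 and 3808. In the comparison of Filgotinib with DMSO, 14.6% of all genes were called lower. *Ebi3* with Filgotinib was 680, 675 and 457 and was not called.

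No other JAK inhibitor was called for *Il27*. The means were 2075 with Pacritinib, 2316 with Momelotinib, 2376 with Ruxolitinib and 2891 with Tofacitinib, all below the DMSO mean of 3808. The mean with the JAK2 inhibitor BMS-911543 was above it, at 4688. Among the PI3K/mTOR inhibitors *Il27* spanned nearly the whole order of the 59 groups. It was highest of all with Omipalisib, at 5511, 4033 and 6575, which overlapped with DMSO (log2 fold change 0.55 ± 0.37, adjusted p 0.276). With BGT-226 it was 2222, 1302 and 2386, a log2 fold change of -0.92 ± 0.37 with an adjusted p of 0.0452 by limma. Without replicate 2 this fell to -0.37 with an adjusted p of 0.590. The MEK inhibitor Pimasertib gave 1425, 3920 and 1474, and the AKT inhibitor GSK-2110183 gave 1976, 1976 and 1740, all below DMSO but not called.

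**Figure D3:**
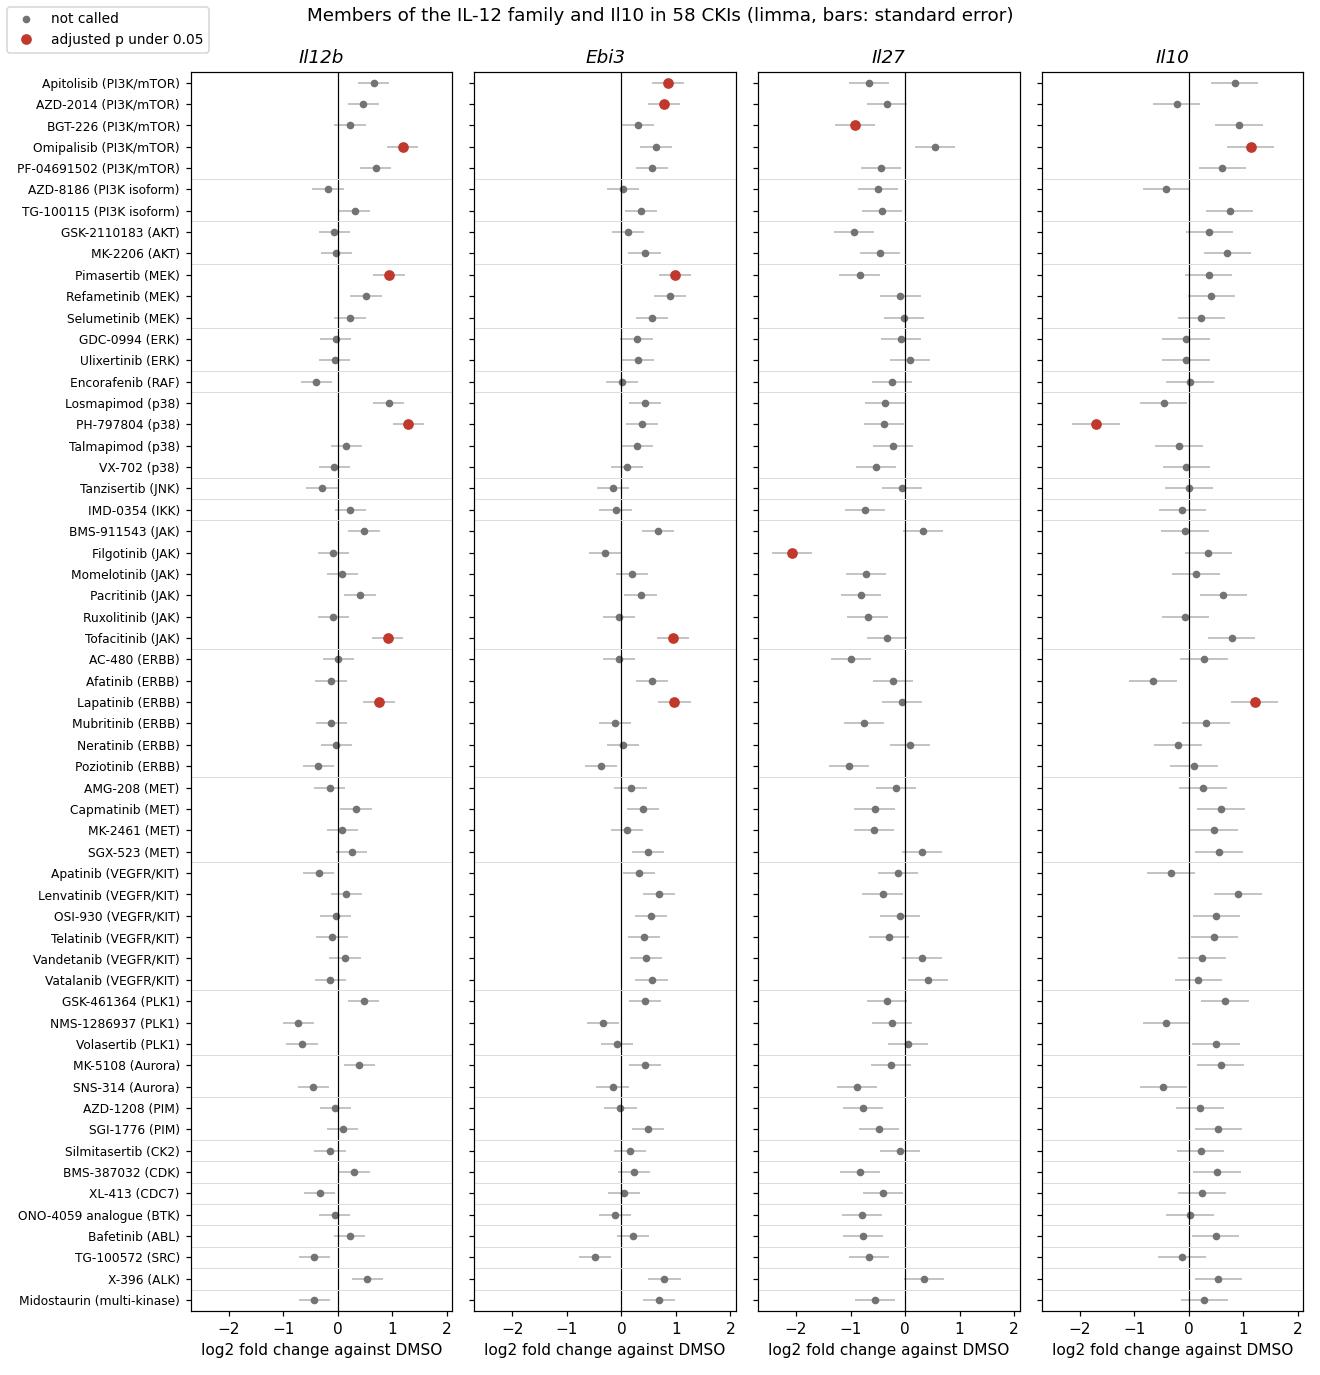
Log2 fold change against DMSO (horizontal axes, bars are standard errors from limma) of *Il12b*, *Ebi3*, *Il27* and *Il10* in each of the 58 CKIs, grouped by the class of kinase. Red points have an adjusted p under 0.05, in 5, 5, 2 and 3 CKIs; the most negative values are those of *Il27* with Filgotinib (-2.07) and *Il10* with PH-797804 (-1.70).

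Beside 2.52% of all tests called higher and 1.65% called lower, *Il10* was called higher in 2 CKIs and lower in 1. Its unadjusted p was under 0.05 in 5 CKIs. It varied more between DMSO samples than the other tested members relative to its level, with 1509, 969 and 658 in the first set and 2089, 639 and 838 in the second. Samples numbered 1 were the highest of the 3 in 50 of the 58 CKIs, as they were in both DMSO sets, and samples numbered 3 were the lowest in 38. The differences below were therefore also read within a replicate number, as a description. Same-numbered samples were alike in part: the mean correlation of a CKI sample was 0.22 with its own number and -0.11 with the others. They did not pair throughout, as 126 of 174 CKI samples, and not all, correlated best with their own number.

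With PH-797804 *Il10* was 458, 244 and 267, a log2 fold change of -1.70 ± 0.44 with an adjusted p of 0.0141 by limma. All 3 samples were below all DMSO samples, a pattern found in 2.02% of all tests and, for *Il10*, in no other CKI. Each was also below both DMSO samples of its own number. In the comparison of PH-797804 with DMSO, 1.25% of all genes were called lower. Against 1 DMSO set alone the adjusted p was 0.0845 for the first and 0.0591 for the second, at a log2 fold change of -1.67 and -1.74. Losmapimod gave 1506, 626 and 421 and was not called, and Talmapimod and VX-702 overlapped with DMSO.

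With Lapatinib *Il10* was 2898, 2455 and 1797, a log2 fold change of 1.21 ± 0.44 with an adjusted p of 0.0350 by limma. With Omipalisib it was 2466, 2916 and 1530, a log2 fold change of 1.13 ± 0.44 with an adjusted p of 0.0424. Both overlapped with the DMSO sample at 2089, while every sample was above both DMSO samples of its own number. Neither call remained without a filter or after scaling by the median of ratios, and both were lost against either DMSO set alone.

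The other PI3K/mTOR inhibitors gave *Il10* values of 2854, 1984 and 1256 with BGT-226, 2265, 1462 and 1804 with Apitolisib, 2591, 1115 and 1292 with PF-04691502 and 1381, 553 and 850 with AZD-2014. None was called in the fit without the replicate number, and AZD-2014 differed from the rest in having a mean below DMSO, 928 against 1117. With the MEK inhibitors the means were 1400 ± 487 for Refametinib, 1356 ± 894 for Selumetinib and 1309 ± 148 for Pimasertib (SD, n = 3). The AKT inhibitors MK-2206 and GSK-2110183 gave 1726 and 1492.

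*Il12b* and *Il10* moved in opposite directions with PH-797804, and both were called higher with Omipalisib and Lapatinib. As a description, the log2 ratio of *Il12b* to *Il10* within a sample was highest with PH-797804, at 3.34, 3.96 and 3.69. It followed with Losmapimod, at 1.09, 2.40 and 2.69, with AZD-2014, at a mean of 1.36, and with Pimasertib, at a mean of 1.24, and was lowest with the PLK1 inhibitor Volasertib, at a mean of -0.48. Over the 59 group means on the log2 scale, *Il12b* and *Il10* had a Pearson's r of 0.20 and a Spearman's rho of 0.44. The closest pair of members was *Il12b* and *Ebi3*, with r = 0.68. All these points share the scaling of the series, and both genes of that pair were correlated with the mitochondrial share given below.

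**Figure D4:**
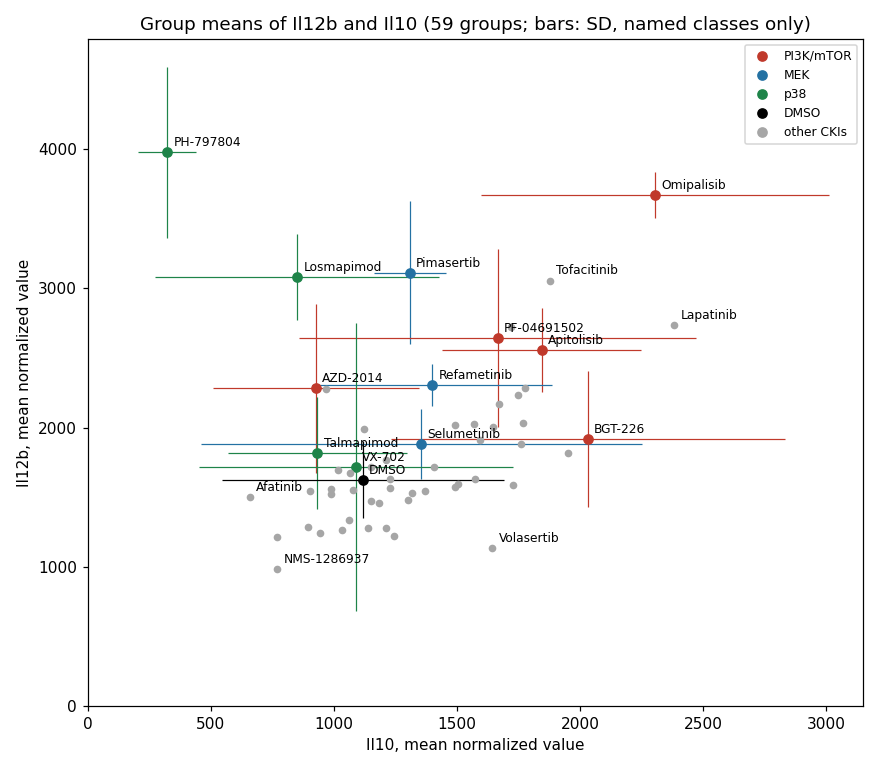
Mean normalized value of *Il10* (horizontal) and *Il12b* (vertical) in DMSO and the 58 CKIs, on linear axes from 0, with SD bars for DMSO and the PI3K/mTOR, MEK and p38 classes. PH-797804 stands alone at 3977 for *Il12b* and 323 for *Il10*, while Omipalisib lies at 3670 and 2304.

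In the order of the 59 groups by mean, neighbours overlapped in all 58 pairs for *Il12b* and *Ebi3* and in 57 of 58 for *Il27* and *Il10*. The exceptions were the lowest groups, Filgotinib for *Il27* and PH-797804 for *Il10*. DMSO was at position 35 from the highest for *Il12b*, 47 for *Ebi3*, 40 for *Il10* and 10 for *Il27*. The group means spanned 4.06-fold for *Il12b*, 2.77-fold for *Ebi3*, 6.18-fold for *Il27* and 7.38-fold for *Il10*.

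Taken as the mean of the 5 CKIs, the PI3K/mTOR inhibitors gave a higher *Il12b*, by 0.65 ± 0.20 on the log2 scale with an adjusted p of 0.0061 by limma, and *Ebi3* by 0.63 ± 0.20 with an adjusted p of 0.0103. In this comparison 24.8% of genes were called higher and 12% lower, and the median over all genes was 0.11. *Il10* differed by 0.66 ± 0.30 with an adjusted p of 0.0702, and *Il27* by -0.36 ± 0.25 with an adjusted p of 0.248. Without Omipalisib the values were 0.51 for *Il12b* and 0.63 for *Ebi3*, and both were still called. Against the first and second DMSO set alone *Il12b* differed by 0.63 and 0.67 with adjusted p-values of 0.0678 and 0.0535 by limma, and *Ebi3* against the second by 0.52 with an adjusted p of 0.147. Without replicate 3 *Ebi3* differed by 0.55 with an adjusted p of 0.0882.

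The mean of the 3 MEK inhibitors was higher than DMSO for *Ebi3*, by 0.81 ± 0.22 with an adjusted p of 0.0142 by limma, beside 13.5% of genes called higher and 2.18% lower. It was 0.72 with an adjusted p of 0.137 without Pimasertib, and not called against either DMSO set alone, with adjusted p-values of 0.0643 and 0.153, nor without replicate 2 or replicate 3, with 0.0788 and 0.133. *Il12b* differed by 0.56 ± 0.21 with an adjusted p of 0.0549, *Il10* by 0.34 ± 0.33 with an adjusted p of 0.469 and *Il27* by -0.31 ± 0.27 with an adjusted p of 0.420.

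The difference between the classes themselves passed for none of the 4 genes in this fit, while 20.6% of all genes differed. PI3K/mTOR minus MEK was 0.09 for *Il12b* (95% interval -0.25 to 0.43) and -0.18 for *Ebi3* (-0.53 to 0.17). It was 0.32 for *Il10* (-0.19 to 0.84) and -0.05 for *Il27* (-0.48 to 0.38), with adjusted p-values between 0.420 and 0.901 by limma and unadjusted p-values of at least 0.219. These intervals leave room for differences of up to 0.84 on the log2 scale in *Il10*. With the replicate number and the mitochondrial share as terms, the difference of *Il10* was 0.63 and was called, with an adjusted p of 1.2e-05.

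**Figure D5:**
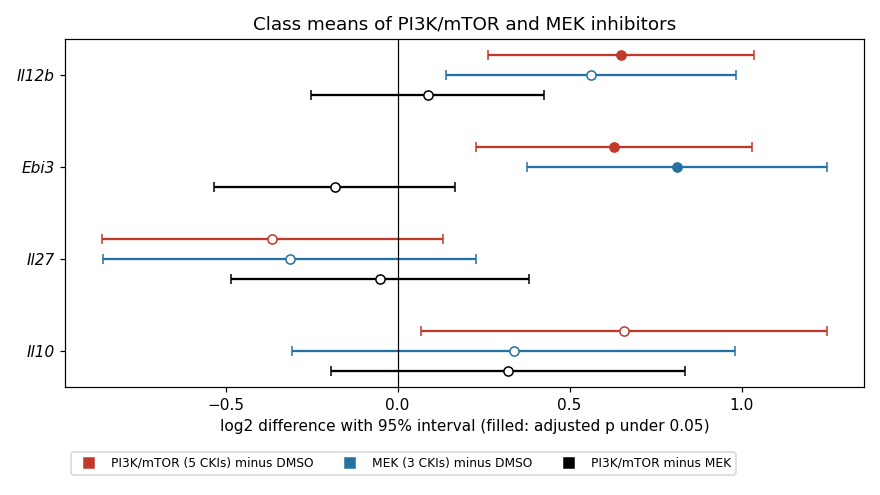
Log2 difference of the class means from DMSO and between the classes (horizontal axis) for *Il12b*, *Ebi3*, *Il27* and *Il10*, with 95% intervals from limma. Filled points have an adjusted p under 0.05, which holds for *Il12b* and *Ebi3* with the PI3K/mTOR class and for *Ebi3* with the MEK class; all 4 intervals of PI3K/mTOR minus MEK include 0.

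The share of mitochondrial transcripts moved with several of these results. Over the 180 samples its correlation was 0.73 with *Il10*, 0.59 with *Ebi3*, 0.58 with *Il12b* and -0.04 with *Il27*, all on the log2 scale and given as a description, since the samples of a group are not independent points. The share was 0.759% to 1.94% in DMSO, 3.24% to 4.29% with Pimasertib, 1.92% to 3.71% with Lapatinib, 1.35% to 4.01% with Tofacitinib and 1.49% to 4.04% with Apitolisib. It was 0.922% to 1.82% with PH-797804, 0.965% to 1.54% with AZD-2014 and 1.29% to 2.19% with Omipalisib, at or near the DMSO range.

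In a fit with this share and the replicate block as terms, *Il12b* was still called with PH-797804, at 1.27, and with Omipalisib, at 1.00. It was not called with Pimasertib, at 0.22, Lapatinib, at 0.29, or Tofacitinib, at 0.48. *Ebi3* was still called with AZD-2014, at 0.78, but not with Pimasertib, at 0.32, Lapatinib, at 0.54, Tofacitinib, at 0.55, or Apitolisib, at 0.38. *Il10* was still called with PH-797804, at -1.75, and Omipalisib, at 0.85, but not with Lapatinib, at 0.50. It was called in addition with BGT-226, at 0.74, and lower with Losmapimod, Afatinib and Pimasertib. In this fit the PI3K/mTOR difference of *Il12b* was 0.39 with an adjusted p of 0.0404 by limma, and those of *Ebi3* were 0.39 with the PI3K/mTOR class and 0.39 with the MEK class, neither called.

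Markers of other cell types also moved with some of these results. The 4 neutrophil markers, which summed to 166 to 517 in DMSO, summed to 782 to 931 with Pimasertib, 727 to 962 with Lapatinib, 353 to 1178 with Tofacitinib and 413 to 837 with Apitolisib, the CKIs in which *Ebi3* was called beside AZD-2014. With AZD-2014 the sum was 210 to 395. The mean was above that of DMSO in all 4 markers with Pimasertib and Apitolisib and in 3 with Lapatinib and Tofacitinib. With Pimasertib *S100a8* was at 504 against 169 and *S100a9* at 359 against 102, while *Ly6g*, the defining marker, was at 0.333 against 0.167. The sum was 120 to 211 with Omipalisib and 197 to 312 with PH-797804, within or below the DMSO range.

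The 5 dendritic cell markers summed to 87 to 153 in DMSO, 178 to 297 with Omipalisib, 153 to 181 with BGT-226 and 50 to 71 with PH-797804. With Omipalisib 2 of the 5 had a mean above that of DMSO, namely *Xcr1*, at 122 against 56.5, and *Ccr7*, at 90.7 against 35. *Ccr7*, a chemokine receptor that activated dendritic cells carry, was at 7.33 with PH-797804. The means of *Flt3* and *Zbtb46*, which define the lineage, were 4.0 and 5.0 with Omipalisib and 8.17 and 6.83 in DMSO. The part of these markers in the results was not tested.

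Of the receptors and signalling proteins of these cytokines, 10 of 14 listed genes were tested, and 0 rose and 4 fell with the PI3K/mTOR inhibitors, beside a median over the list of -0.21 and over all genes of 0.11. Over all genes 24.8% were called higher and 12% lower. *Socs1*, a feedback inhibitor of JAK signalling, fell by 1.90 on the log2 scale, and *Il10ra*, the ligand-binding chain of the IL-10 receptor, fell by 0.51. *Socs3*, which limits signalling by gp130 cytokines, fell by 0.26, and *Stat3*, which carries the IL-10 signal, by 0.24. With Omipalisib alone 1 of the 10 rose and 1 fell, beside 17.5% and 8.16% of all genes. There *Il10ra* differed by -0.53 and was called, while *Socs1*, *Socs3* and *Stat3* differed by -1.11, 0.17 and -0.007 and were not called. With the MEK inhibitors 0 rose and 2 fell, namely *Socs3* by 0.37 and *Il10ra* by 0.34, beside a list median of -0.16, where 13.5% of all genes were called higher and 2.18% lower. *Il12rb1*, *Il23r*, *Il27ra* and *Stat4* were below the filter.

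Of 24 transcription regulators and mRNA decay factors of these cytokines, 23 were tested. With the PI3K/mTOR inhibitors 8 rose and 3 fell, with a list median of 0.13, beside 24.8% of all genes called higher and 12% lower. *Bhlhe40*, a repressor of *Il10* in T cells and macrophages, rose by 1.87, *Foxo3* by 1.34, *Foxo1* by 0.65, *Atf3*, a repressor of inflammatory genes induced by TLRs, by 0.44. *Irf8*, an activator of *Il12b*, fell by 0.79 and *Creb1* by 0.45. With the MEK inhibitors 5 rose and 3 fell, with a list median of -0.02, beside 13.5% and 2.18%. *Foxo3* rose by 1.02, *Nfil3*, a repressor of *Il12b*, by 0.69, *Gsk3b*, a kinase inhibited by AKT, by 0.56 and *Crem* by 0.49, while *Irf8* fell by 0.73 and *Junb* by 0.49.

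*Bhlhe40* differed from DMSO by -0.09 with the MEK inhibitors, with an adjusted p of 0.842 by limma. With PH-797804, 0 of the 23 regulators rose and 2 fell, beside 0.731% of all genes called higher and 1.25% lower, so that the 0 is near the background. *Zfp36*, whose protein promotes decay of AU-rich mRNAs and is a known target of the p38 cascade, fell by 1.57, and *Junb* fell by 0.94. With Omipalisib 9 rose and 0 fell, beside 17.5% and 8.16% of all genes, and *Bhlhe40* differed by 2.41 and *Atf3* by 1.26. *Irf8*, lower with the class, differed by -0.002 with Omipalisib and was not called.

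The genes most like each member were sought by Pearson's r of the group means over the 59 groups, which share the scaling and the mitochondrial differences given above. They were *Klf7* (0.80), *Cd80* (0.80), which encodes a T cell costimulatory ligand, and *Nck1* (0.79) for *Il12b*, where 95% of tested genes had an r below 0.57. They were *Usp18* (0.91), an interferon-induced protease, *Zbtb8a* (0.87) and *Caml* (0.85) for *Il27*, and *Gm6377* (0.84), the chemokine gene *Ccl9* (0.84) and *Rc3h1* (0.82), which encodes the mRNA decay factor Roquin, for *Il10*. For *Ebi3* they were the Fc receptor gene *Fcgr2b* (0.90), *Gm16712* (0.90) and *Tapbpl* (0.85). *Gm16712* overlaps *Ebi3* on the opposite strand and had a mean normalized value of 120 against 950, so that the reads of the pair cannot be told apart. *Apobr*, which overlaps *Il27*, had an r of -0.08 with it.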

How the data were processed

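Bone marrow-derived macrophages were profiled by polyA RNA-seq with the SMART-seq2 protocol, in 180 samples of 59 groups. The authors aligned reads to mm10 with TopHat2 2.1.1, with its limit on multiple hits set to 1, and removed blacklisted regions with bedtools 2.29.2. They counted reads on exons of curated RefSeq genes and scaled the samples on invariant genes. The deposited values are these normalized counts rounded to whole numbers, used as a score on an arbitrary scale, not as raw counts. They were tested as log2(value + 1) by limma 3.58.1 (R 4.3.3) with a variance trend in 1 fit of all 59 groups, over the 12714 genes with a mean of at least 10, with Benjamini-Hochberg adjustment over these genes. A count test was not used, because scaled values carry no read depth of their own; totals were 9477340 to 12273349 per sample. Single low genes were compared by exact permutation tests (Python 3.11.15 with NumPy 2.4.6). The fits were tested on simulated data. The table's own gene coordinates were used. The methods describe 3 independent biological replicates. Members, classes and gene lists were chosen with earlier results of these data known. Genes named are the members, the 3 genes most correlated with each, and up to 6 called genes of each list per class. CKIs named for a member are those of the PI3K, AKT, MEK and ERK classes and those in which it was called; other CKIs and p38 inhibitors named, and the list genes given for PH-797804 and Omipalisib, were chosen after their values were seen. *Il10*, *Il27* and *Il23a* promoters are not shown. 1 gene of the list of receptors and signalling proteins is not reported here and was left out of its counts and medians.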

Additional observations from a re-analysis of the deposited data

How the results depend on the processing

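The alternatives were a pseudocount of 10, no filter, a filter at a mean of 50, a second scaling with medians of ratios, the DMSO sets taken singly, a fit of only the groups compared, a replicate block, that block with the mitochondrial share, and leaving out each replicate number. Class means without Omipalisib or Pimasertib, and all settings for *Il23a*, were added after seeing the data. Of the 15 calls in single CKIs, 3 passed under every alternative other than leaving out replicates: *Il12b* with PH-797804 and Omipalisib, and *Il27* with Filgotinib. *Il12b* with Omipalisib and *Il27* with Filgotinib also passed with each replicate number left out, and the other 13 calls did not. Over all settings 104 of 180 values kept their call, 76 kept their direction without the call, and 0 turned. A pseudocount of 10 and a filter at 50 changed no call of the 4 tested genes. The cause of the other changes was not tested.

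Without a filter, *Il12b* was higher in 3 CKIs, *Ebi3* in 2 and *Il10* in 0, and *Il27* was lower in 1. After scaling by the median of ratios, *Il12b* and *Ebi3* were higher in 3 CKIs each and *Il10* in 0, and the median of all genes in the MEK contrast moved from 0.11 to -0.003, with no change of direction in the members. Against the first DMSO set alone, *Il12b* and *Ebi3* were higher in 2 CKIs each, *Il27* lower in 1, and *Il10* higher in 0 and lower in 0. The PI3K/mTOR difference of *Il12b* was then 0.63 and the MEK difference of *Ebi3* 0.92, neither called, and for *Il23a* the PI3K/mTOR difference was 1.16, not called, and the MEK difference turned to -0.12. Against the second set alone, *Il12b* was higher in 2 CKIs and *Ebi3* in 0, *Il27* lower in 1, and *Il10* higher in 0 and lower in 0. The PI3K/mTOR differences were 0.67 for *Il12b* and 0.52 for *Ebi3* and the MEK difference of *Ebi3* was 0.71, none called. In the fit of only the groups compared, *Il27* was lower in 1 CKI and *Il10* higher in 1 and lower in 0, and the MEK difference of *Il12b*, 0.56, was called.

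Same-numbered samples did not pair throughout: 144 of 174 CKI samples correlated above 0.1 with the DMSO samples of their number, the lowest at -0.52, and 126 of 174 correlated best with their own number. With the replicate block, *Il10* was higher in 6 CKIs (Lapatinib, Omipalisib, BGT-226, Apitolisib, Lenvatinib and Tofacitinib), *Il12b* in 6, with PF-04691502 added at an adjusted p of 0.0489, and *Ebi3* in 6, with Refametinib added at 0.0354, and the PI3K/mTOR difference of *Il10*, 0.66, and the MEK difference of *Il12b*, 0.56, were called with adjusted p-values of 0.0071 and 0.0283 by limma. It changed no other call of the 4 tested genes. With the replicate block and the mitochondrial share, *Il12b* was higher in 2 CKIs and lower in 1 (Volasertib), *Ebi3* higher in 2 (AZD-2014 and BMS-911543), and *Il10* lower in 4 (PH-797804, Losmapimod, Afatinib and Pimasertib). The PI3K/mTOR and MEK differences of *Ebi3* were 0.39 and 0.39, not called, and their difference turned to 0.0068. The MEK difference turned to -0.36 for *Il10* and -0.040 for *Il23a*, and PI3K/mTOR minus MEK was 0.63 for *Il10* and called.

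Leaving out 1 replicate number gave 1 to 5 CKIs higher for *Il12b*, 0 to 3 for *Ebi3* and 0 to 2 for *Il10*, 1 to 2 lower for *Il27* and 0 to 1 lower for *Il10*. The PI3K/mTOR difference ranged from 0.55 to 0.73 for *Ebi3*, 0.58 to 0.82 for *Il10*, -0.70 to 0.040 for *Il27* and 1.26 to 1.88 for *Il23a*. The MEK difference ranged from 0.72 to 0.91 for *Ebi3* and -0.0093 to 0.55 for *Il23a*, and PI3K/mTOR minus MEK from -0.25 to 0.32 for *Il27* and 0.88 to 1.64 for *Il23a*. The MEK call of *Ebi3* was lost without replicate 2 or 3, the PI3K/mTOR calls of *Ebi3* without replicate 3 and of *Il23a* without replicate 2, and the call of *Il23a* between the classes without replicate 1 or 2. The PI3K/mTOR difference of *Il10* was called without replicate 1. The turn of *Il27* came without replicate 2 and that of *Il23a* without replicate 3. Without Omipalisib, PI3K/mTOR minus MEK turned to -0.048 for *Il12b* and was 0.82 for *Il23a*, and the class difference of *Il23a* was 1.12, none called. Without Pimasertib the MEK difference of *Ebi3* was 0.72, not called.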
